A study of Homo sapiens with 4 samples.

Results

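CCT, also called TRiC, is the chaperonin of the cytosol, and its 8 subunits are encoded by 8 separate genes: TCP1, CCT2, CCT3, CCT4, CCT5, CCT6A, CCT7 and CCT8. These genes were chosen by symbol, as the subunits of this complex, and all 8 were found among the 18885 genes listed and among the 16937 genes that were expressed highly enough to be tested. The libraries came from MV4-11, a human acute myeloid leukemia (AML) cell line that carries an MLL fusion gene and a FLT3 duplication. There were 2 libraries of control cells (NC) and 2 libraries of cells in which ANP32B was knocked down with a short hairpin RNA (sh-ANP32B). The labels give no shRNA and no treatment for the NC cells, whereas the methods of the study name an sh-NC control. Whether the NC cells had been transduced and selected with puromycin is therefore not settled here, and any effect of those steps cannot be told apart from the loss of ANP32B. The knockdown columns of the table bear a single code that was read as sh-ANP32B. The labels call the libraries of a group separate samples but do not say that they came from separate cultures, so every p-value measures only the spread between these libraries.

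The CCT complex is built of stacked rings in which each ring holds 1 copy of every subunit, with TCP1 as subunit alpha and CCT2 to CCT8 as beta to theta. It closes over a newly made protein and lets it fold with the use of ATP. Actin and tubulin are its best known clients, and some WD40-repeat proteins depend on it too. The genes are expressed in most dividing cells.

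Expression is given in TPM, a read density over gene length that is brought to an equal total in every library, so levels of different genes can be set side by side. The libraries summed to between 997271 and 998546 TPM over the genes listed. TPM keep no read numbers, so the depth is unknown. Log2 fold changes are on the log2(TPM + 1) scale, sh-ANP32B against NC, and were tested with limma. A gene was called when its unadjusted p was below 0.05 and its log2 fold change was beyond 0.5, and Benjamini-Hochberg adjusted p-values over all genes tested are printed. The targeted gene, ANP32B, stood at 358.2 and 363.8 TPM in NC and at 54.08 and 49.29 TPM in sh-ANP32B, that is, at 14.3% of its NC level (log2 fold change -2.78, adjusted p = 2.89e-05, limma). Of the markers of the cell line, PTPRC (62.3 to 142.1 TPM), CD33 (52.79 to 72.56 TPM), HOXA9 (175.2 to 185.8 TPM) and SPI1 (250.3 to 361.3 TPM) were present in all 4 libraries. MEIS1 (29.58 to 47.88 TPM) was present too. FLT3 (5.519 to 6.3 TPM) and KIT (1.166 to 3.476 TPM) were low, and MPO, of the same list, was not analysed here. Of 12 markers of other lineages, 4 were listed, and NKG7 was the highest of them, at 58.31 to 76.04 TPM.

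The genes of 5 of the 8 subunits start head to head with another protein-coding gene, within 1 kb and on the other strand (GENCODE version 44, hg38). The bases between the 2 starts are shown for 4 of these pairs, since the partners did not all change as the subunits did (below, with their values). Each is written 5′ to 3′ on the strand of the CCT gene, and capitals mark the CCAAT box on either strand, where ATTGG is the same letters read on the other strand. The stretches run from the start of the partner to the start of the CCT gene and contain no exon of either gene.
TCP1, shared with MRPL18 (chr6:159789704-159789811, minus strand): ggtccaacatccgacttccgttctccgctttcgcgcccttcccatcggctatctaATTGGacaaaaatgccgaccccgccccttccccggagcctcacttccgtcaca
CCT4, shared with COMMD1 (chr2:61888672-61888723, minus strand): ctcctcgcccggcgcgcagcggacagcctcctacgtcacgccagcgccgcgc
CCT6A, shared with PSPH (chr7:56051605-56051684, plus strand): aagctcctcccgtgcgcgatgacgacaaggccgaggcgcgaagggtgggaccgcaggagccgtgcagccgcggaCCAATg
CCT7, shared with PRADC1 (chr2:73233240-73233419, plus strand): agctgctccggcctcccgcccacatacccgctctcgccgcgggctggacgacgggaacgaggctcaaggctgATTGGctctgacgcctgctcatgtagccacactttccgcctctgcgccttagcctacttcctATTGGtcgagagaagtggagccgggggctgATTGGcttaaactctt

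The 4 stretches were 52 to 180 bases long. G and C made up 59.3% of the bases in TCP1, 61.7% in CCT7, 70% in CCT6A and 78.8% in CCT4. The 180 bases of CCT7 held the CCAAT letters 3 times, those of TCP1 and CCT6A 1 time each, and those of CCT4 did not hold them. Over 35116 RefSeq promoters, the letters lie in the same length before the start in 26.2% for 180 bases, in 19.1% for 108 bases and in 14.7% for 80 bases. The stretches end at GENCODE starts, whereas these shares are taken before RefSeq starts. For CCT7 and TCP1 the RefSeq start lies inside the GENCODE gene, so the regions are not strictly alike. The 31 bases between CCT5 and ATPSCKMT were all A and are not printed.

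RefSeq promoter windows on hg38, from 250 bases before to 50 bases after a start, were matched for 7 of the 8 subunits in 9 windows, and CCT6A had no entry. They were searched on both strands for CACGTG (the E-box bound by MYC with MAX), for GAANNTTC and TTCNNGAA (paired units of the heat shock element, which can overlap each other), for CCAAT and for CCGGAAG (a site of ETS factors). The letters CACGTG were in none of the 9 windows, and 7.26% of all RefSeq windows hold them. CCAAT was found in CCT2, CCT3, CCT8 and TCP1, against 34.6% of all windows. GAANNTTC was found in TCP1 and in the second window of CCT2 (6.77% of all windows), TTCNNGAA in CCT4 (7.74%) and CCGGAAG in CCT2 (10.3%). These matches are descriptions of the letters, and the windows of CCT3, CCT5 and CCT7 and the second window of CCT2 lie wholly inside the gene bounds that GENCODE gives, so the letters searched there are not those at the most upstream start.

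The comparison of sh-ANP32B with NC asks how expression changed when ANP32B was reduced. All 8 CCT subunit genes were lower in both sh-ANP32B libraries than in either NC library. TCP1, CCT2, CCT4, CCT5 and CCT8 passed the call and fell to between 63.9% and 68.5% of their NC level. CCT3, CCT6A and CCT7 stood at 75%, 74.8% and 71.7% of it and did not reach the fold limit. The share of all genes tested that was called lower was 10.8%, and the share called higher was 20.2%. With the adjusted p in place of the unadjusted p, the same number of subunits, 5 of 8, was called lower, against 10.1% of all genes tested. Without the fold limit, all 8 subunits were lower at an adjusted p below 0.05, against 19.7% of all genes tested. Groups that did not overlap, lower in sh-ANP32B, were found in 32.1% of all genes tested.

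The subunits are highly expressed, and the share of lower calls was larger among highly expressed genes. Among the 1634 genes whose mean reached 100 TPM, which include all 8 subunits, 18.4% were called lower, and 44.7% were lower at an adjusted p below 0.05 without the fold limit. The median log2 fold change was -0.55 over the subunits, -0.09 over these high genes and 0.08 over all genes tested, with quartiles of -0.26 and 0.45. Because RNA from whole cultures was measured, fewer cells with high CCT expression and less CCT RNA per cell cannot be told apart.

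CCT5 (ENSG00000150753, chr5:10249929-10266389, plus strand), subunit epsilon, had the most negative fold change of the 8 over all 4 libraries, though that of CCT4 was more negative without NC replicate 2 (-0.68 against -0.66) and without sh-ANP32B replicate 2 (-0.67 against -0.59). It stood at 291 and 286.6 TPM in NC and at 191.3 and 177.5 TPM in sh-ANP32B. The 2 groups did not overlap, and its log2 fold change was -0.65 (SE 0.048, 95% confidence interval -0.77 to -0.52, adjusted p = 0.000387, limma).

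CCT4 (ENSG00000115484, chr2:61868085-61888671, minus strand), subunit delta, stood at 259 and 240.9 TPM in NC and at 157 and 166.5 TPM in sh-ANP32B. Its NC libraries differed the most of all subunits, yet the highest sh-ANP32B library was far below the lowest NC library. The log2 fold change of CCT4 was -0.62 (SE 0.054, interval -0.76 to -0.49, adjusted p = 0.000594, limma).

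TCP1 (ENSG00000120438, chr6:159778498-159789703, minus strand), subunit alpha, was the most abundant subunit in every library. It stood at 431.6 and 448.9 TPM in NC and at 298.5 and 293.5 TPM in sh-ANP32B, a log2 fold change of -0.57 (SE 0.038, interval -0.67 to -0.48, adjusted p = 0.00029, limma). In sh-ANP32B, TCP1 was thus lower than CCT3, CCT6A, CCT7 and CCT8 had been in NC.

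CCT8 (ENSG00000156261, chr21:29055805-29073797, minus strand), subunit theta, stood at 373.9 and 368.3 TPM in NC and at 260.2 and 246.9 TPM in sh-ANP32B. The groups were well apart, and the log2 fold change was -0.55 (SE 0.041, interval -0.65 to -0.44, adjusted p = 0.000397, limma). CCT8 was the 1 called subunit whose call was lost under quantile normalization, where its log2 fold change was -0.48.

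CCT2 (ENSG00000166226, chr12:69585426-69601570, plus strand), subunit beta, was the least abundant of the 8 in every library. It stood at 222.5 and 231.4 TPM in NC and at 156.8 and 154 TPM in sh-ANP32B. Its 2 sh-ANP32B libraries lay close together, and the log2 fold change was -0.54 (SE 0.041, interval -0.65 to -0.44, adjusted p = 0.000397, limma).

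The other 3 subunits differed in the same direction by less and were not called. CCT7 (ENSG00000135624, chr2:73233420-73253021, plus strand), subunit eta, stood at 361.3 and 345.5 TPM in NC and at 252 and 254.7 TPM in sh-ANP32B. Its log2 fold change of -0.48 (SE 0.039, interval -0.58 to -0.38, adjusted p = 0.000513, limma) had an interval that spanned the fold limit. The intervals of TCP1, CCT2, CCT3, CCT4, CCT6A and CCT8 spanned it too, and only that of CCT5 lay wholly beyond it. The call thus does not part the subunits into 2 clear sets. Without NC replicate 2 the log2 fold change of CCT7 was -0.51, past the limit.

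CCT6A (ENSG00000146731, chr7:56051685-56063989, plus strand), subunit zeta, stood at 309.3 and 308.7 TPM in NC and at 238.2 and 224 TPM in sh-ANP32B. Its NC libraries were almost identical, and its log2 fold change was -0.42 (SE 0.044, interval -0.53 to -0.31, adjusted p = 0.0011, limma). CCT3 (ENSG00000163468, chr1:156308968-156367873, minus strand), subunit gamma, stood at 377.1 and 388.3 TPM in NC and at 290.4 and 283.4 TPM in sh-ANP32B, with a log2 fold change of -0.41 (SE 0.038, interval -0.51 to -0.32, adjusted p = 0.000682, limma). The intervals of CCT3 and CCT6A almost coincided, and the groups did not overlap for either.

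**Figure D1:**
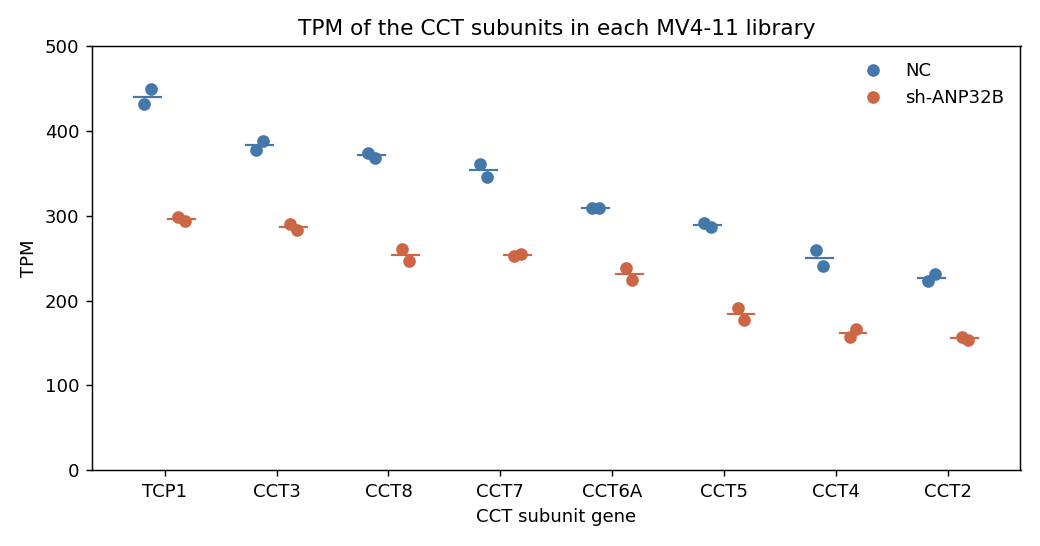
TPM of each CCT subunit gene (vertical axis, from 0) in the 2 NC and the 2 sh-ANP32B libraries (points), with the group means as short lines and the genes ordered by their NC mean. For all 8 genes both sh-ANP32B points lie below both NC points, from TCP1 at 431.6 and 448.9 against 298.5 and 293.5 TPM to CCT2 at 222.5 and 231.4 against 156.8 and 154 TPM.

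The difference between groups was larger than the difference between replicates for each subunit. The largest absolute difference between replicates among the 8 genes, on the log2 scale, was 0.10 in NC and 0.11 in sh-ANP32B. The median over all genes tested was 0.112 and 0.113. That median takes in many genes of lower level, and the subunits were not compared with genes of like level. The fold changes of the subunits ran from -0.65 to -0.41. An exact two-sided permutation test of 2 against 2 libraries cannot go below p = 0.33, so the p-values rest on the spread that limma pools over genes.

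How many subunits passed the fold limit depended on how the libraries were scaled. With TPM as deposited 5 of 8 were called lower, beside 1833 of 16937 genes tested. With median-of-ratios scaling all 8 were called lower, beside 2479 of 16869 genes tested. The median change on the log2 scale was then -0.64 over the subunits and -0.01 over all genes. With quantile normalization 4 of 8 were called lower, beside 2521 of 16890 genes tested, and the medians were -0.49 and -0.04. Relative to the median of all genes, the median of the subunits lay at -0.63 with TPM as deposited, at -0.64 with median-of-ratios scaling and at -0.45 with quantile normalization. The direction was negative for all 8 subunits under these scalings, and every fold change lay between -0.74 and -0.34. Called genes were lower in 34.9% of cases with TPM as deposited, in 47.5% with median-of-ratios scaling, and in 50.6% with quantile normalization.

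**Figure D2:**
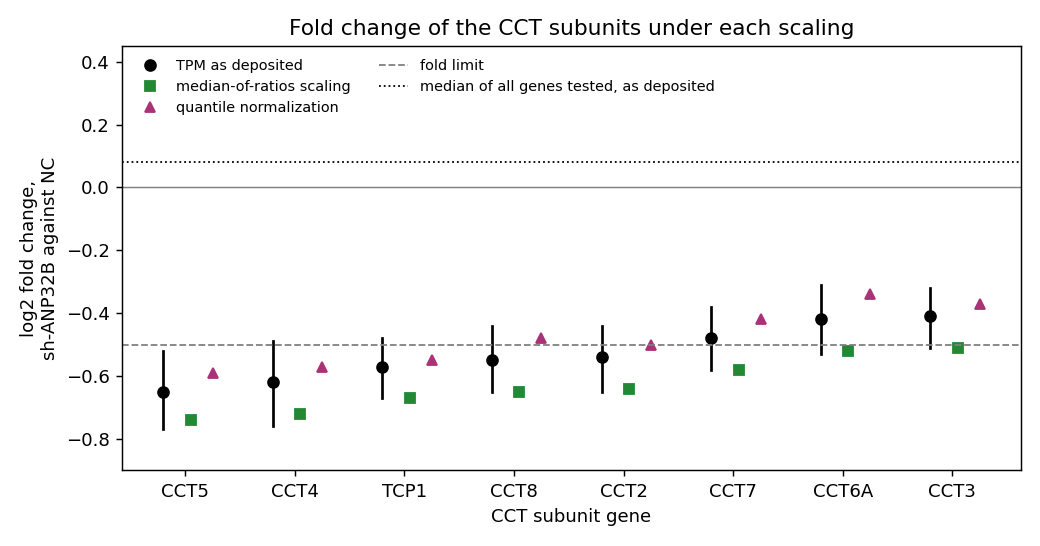
Log2 fold change of each CCT subunit (vertical axis, sh-ANP32B against NC on the log2(TPM + 1) scale) with its 95% confidence interval as black bars for TPM as deposited, and without intervals for median-of-ratios scaling (squares) and quantile normalization (triangles). The dashed line is the fold limit of -0.5 and the dotted line the median of all genes tested, 0.08. All points lie below 0, from -0.74 to -0.34, and CCT3, CCT6A and CCT7 lie above the fold limit for TPM as deposited.

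The summed TPM of the 8 subunits, a measure of the total message for the complex, was 2626 and 2619 in NC and 1844 and 1801 in sh-ANP32B. The means were 2622 ± 4.98 and 1822 ± 31 TPM (SD, n = 2), so the sh-ANP32B sum was 69.5% of the NC sum. As a share of all TPM, the 8 genes held 0.263% and 0.262% in NC and 0.185% and 0.181% in sh-ANP32B. The groups lay far apart beside the gap within either group, and no test was run on the sum.

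The order of the subunits was the same in both groups: TCP1, CCT3, CCT8, CCT7, CCT6A, CCT5, CCT4 and CCT2, from the highest mean TPM to the lowest. In NC the replicate ranges of neighbours in this order did not overlap. In sh-ANP32B they overlapped for CCT8 and CCT7 alone, whose means were 253.6 and 253.4 TPM. The ratio of the highest to the lowest subunit was 1.94 and 1.94 in NC and 1.9 and 1.91 in sh-ANP32B. The subunit genes thus spanned a narrow range of levels, and it was nearly as wide after knockdown.

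The share that each subunit held of the summed CCT TPM does not depend on how libraries are scaled against each other by 1 factor, and it moved little. CCT3 held 14.4% and 14.8% in NC and 15.7% and 15.7% in sh-ANP32B, a rise of 1.15 percentage points. CCT6A held 11.8% and 11.8% in NC and 12.9% and 12.4% in sh-ANP32B, higher by 0.89 points. In the other direction, CCT5 held 11.1% and 10.9% in NC and 10.4% and 9.86% in sh-ANP32B, and TCP1 held 16.4% and 17.1% against 16.2% and 16.3%. For these 4 subunits the groups did not overlap, with shifts of -0.90 points for CCT5 and -0.55 points for TCP1. The shift of TCP1 was smaller than the gap between its NC libraries, 0.70 points. Even for groups that do not overlap, an exact two-sided permutation test of 2 against 2 libraries cannot go below p = 0.33. For CCT2, CCT4, CCT7 and CCT8 the groups overlapped, with shifts between -0.65 and 0.43 points. No test was run on the shares.

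**Figure D3:**
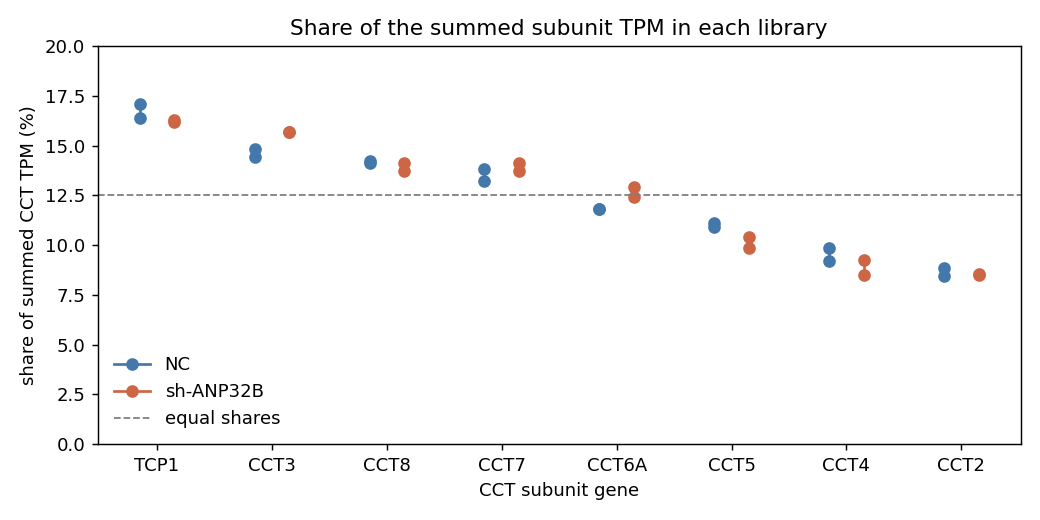
Share of the summed TPM of the 8 CCT subunits held by each gene (vertical axis, percent, from 0) in each NC and sh-ANP32B library, with the 2 libraries of a group joined by a line and the dashed line at equal shares. The 2 groups lie within 1.15 percentage points of each other by their means, with CCT3 and CCT6A higher and CCT5 and TCP1 lower in sh-ANP32B.

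The genes that start head to head with a subunit gave a further set of values that the choice of members did not use. MRPL18, a protein of the mitochondrial ribosome that starts 109 bases from TCP1, stood at 189.1 and 179.1 TPM in NC and at 146.3 and 147.4 TPM in sh-ANP32B (log2 fold change -0.32, adjusted p = 0.00285, limma). PSPH, the last enzyme of serine synthesis, starts 81 bases from CCT6A and stood at 80.4 and 73.73 against 63.69 and 60.24 TPM (log2 fold change -0.31, adjusted p = 0.0121, limma). Both partners were lower in both sh-ANP32B libraries than in either NC library, as were 32.1% of all genes tested. Neither reached the fold limit.

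COMMD1, a regulator of copper handling and NF-kB, starts 53 bases from CCT4 and stood at 21.6 and 19.92 TPM in NC and at 12.79 and 18.75 TPM in sh-ANP32B. Its sh-ANP32B libraries were far apart, and the difference did not pass the test (log2 fold change -0.40, interval -0.84 to 0.04, adjusted p = 0.12, limma), and it was -0.66, past the call, without sh-ANP32B replicate 2 and -0.14 without sh-ANP32B replicate 1. ATPSCKMT, a lysine methyltransferase of the mitochondrial ATP synthase, starts 32 bases from CCT5 and overlapped between groups, with 19.53 and 14.38 TPM in NC and 15.29 and 20.33 TPM in sh-ANP32B (log2 fold change 0.07, interval -0.40 to 0.54, adjusted p = 0.793, limma).

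PRADC1, which encodes a secreted protein with a protease-associated domain, starts 181 bases from CCT7 and was the 1 partner that was higher in both sh-ANP32B libraries. It stood at 30.8 and 31.54 TPM in NC and at 47.53 and 41.57 TPM in sh-ANP32B, opposite to CCT7. Its log2 fold change of 0.50 (interval 0.30 to 0.70, adjusted p = 0.00528, limma) lay at the fold limit without passing it, and it passed with a pseudocount of 0.1, without NC replicate 2 and without sh-ANP32B replicate 2 (0.59 in the last). The sign of PRADC1 was positive under every scaling, from 0.40 with median-of-ratios scaling upward.

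**Figure D4:**
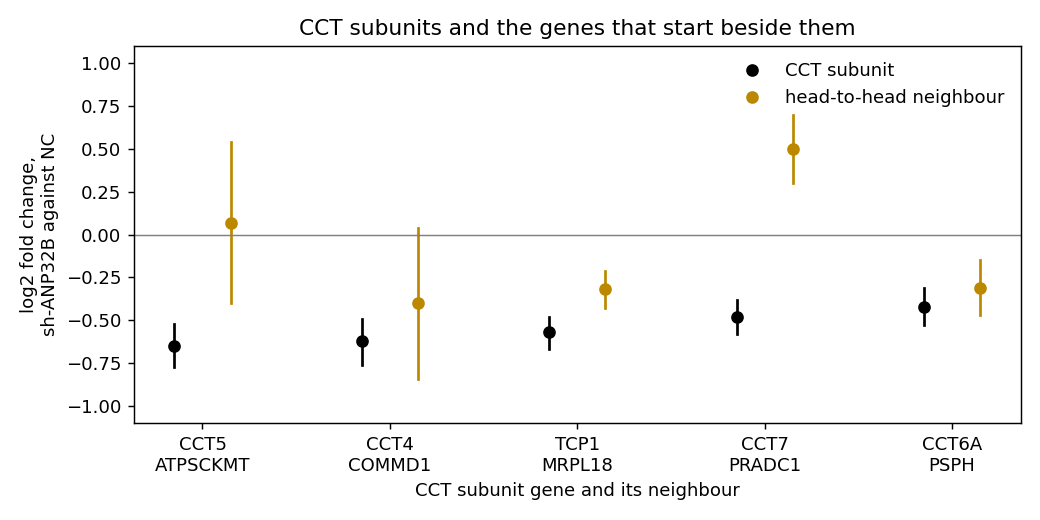
Log2 fold change (vertical axis, sh-ANP32B against NC) with 95% confidence intervals for the 5 CCT subunits that have a head-to-head partner (black) and for the partner (ochre). The subunits lie between -0.65 and -0.42, while the partners run from -0.40 for COMMD1 to 0.50 for PRADC1, which lies on the other side of 0 from CCT7.

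Some genes share exonic bases with a subunit, and the sources used here do not say whether reads were counted by strand, so reads in the shared bases cannot be assigned. The 3′ end of TCP1 shares 454 bases with ACAT2, an enzyme of acetyl-CoA metabolism on the other strand. ACAT2 stood at 57.11 and 55.47 TPM in NC and at 66.82 and 63.15 TPM in sh-ANP32B, the reverse of TCP1 (log2 fold change 0.20, adjusted p = 0.0301, limma), and it did not reach the fold limit. The lncRNA ENSG00000236498 shares 275 bases with CCT4 and stood between 0.7778 and 1.363 TPM. The small nucleolar RNA SNORA20 shares 12 bases with TCP1 and stood between 3.339 and 8.826 TPM, with overlapping groups. The other genes with shared bases, ENSG00000271980 at CCT5 (1734 bases), ENSG00000286360 at CCT4 (181 bases), SNORA29 at TCP1 (140 bases) and ENSG00000286018 at CCT8 (85 bases), and MIR3913-1, which starts 603 bases from CCT2, were not analysed here.

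Pseudogenes, which are copies of a gene that can take up its reads, are annotated for 7 of the 8 subunits, 14 in all, and 3 of them were analysed. CCT6P1, a transcribed copy of CCT6A, stood at 32.74 and 31.41 TPM in NC and at 26.81 and 25.42 TPM in sh-ANP32B (log2 fold change -0.29, adjusted p = 0.0208, limma). CCT6P3, another transcribed copy, rose from 12.5 and 12.87 TPM to 20.6 and 21.68 TPM (log2 fold change 0.69, adjusted p = 0.00194, limma). CCT8P1 stood between 3.062 and 3.655 TPM, with a log2 fold change of -0.13 (adjusted p = 0.541, limma). The 2 copies of CCT6A thus moved apart. How reads were split between copies is not given, so the part of the CCT6A value that this affects is unknown. The same limit holds for the other subunits with annotated pseudogenes.

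The CCT paralog and the chaperonin-like proteins were low, and none of those tested was called lower, against 10.8% of all genes tested. CCT6B, the testis-enriched form of the zeta subunit, stood between 1.956 and 2.25 TPM in the 4 libraries (log2 fold change 0.09, adjusted p = 0.723, limma). MKKS, BBS10 and BBS12 are chaperonin-like proteins that help to assemble the BBSome. MKKS (13.87 to 15.15 TPM, log2 fold change -0.00) and BBS10 (5.551 to 6.397 TPM, 0.05) did not pass the test. BBS12 stood at 1.242 and 1.092 TPM in NC and at 1.936 and 2.897 TPM in sh-ANP32B and was called higher by the unadjusted p alone (log2 fold change 0.64, adjusted p = 0.0675, limma). That call was lost with quantile normalization and without NC replicate 1, NC replicate 2 or sh-ANP32B replicate 2 (lowest value 0.37). The median of these 4 genes was 0.07. CCT8L2 was not analysed here.

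Prefoldin takes unfolded actin and tubulin to CCT. Of 9 prefoldin and prefoldin-like genes, 3 were called lower and none higher, against 10.8% and 20.2% of all genes tested. Their median was -0.39 on the log2 scale. PFDN2 stood at 130.4 and 132.4 TPM in NC and at 83.78 and 80.73 TPM in sh-ANP32B (log2 fold change -0.67, adjusted p = 0.000291, limma). PFDN6 (-0.54, adjusted p = 0.012) and PFDN4 (-0.52, adjusted p = 0.00961) also fell. PFDN5, the most abundant of the list at 216 to 279.8 TPM, lay the other way without passing the call (0.22, adjusted p = 0.0507), and VBP1 had a log2 fold change of 0.07, or of -0.03 with median-of-ratios scaling. The count called lower was 1 without NC replicate 1, where PFDN4 (-0.43) and PFDN6 (-0.49) lost their calls. PFDN4 also lost its call without sh-ANP32B replicate 2, where UXT was called (-0.52), as UXT was without NC replicate 2.

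Phosducin-like proteins bind CCT and modulate its folding of clients. PDCL3 fell, from 33.52 and 32.31 TPM to 25.66 and 20.49 TPM (log2 fold change -0.50, adjusted p = 0.017, limma), and the call was lost without NC replicate 1 and without sh-ANP32B replicate 2 (-0.35). PDCL (log2 fold change -0.00) and TXNDC9 (0.12) did not pass the test, and the median of the 3 genes was -0.00. PDCL2 was not analysed here.

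Of 13 actin and tubulin genes, the main clients, 2 were called lower and 1 higher, against 10.8% and 20.2% of all genes tested, and the median was -0.18 on the log2 scale. TUBB, a beta-tubulin, fell from 215.5 and 212.5 TPM to 133.4 and 113 TPM (log2 fold change -0.80, adjusted p = 0.000998, limma). TUBA1B, the most abundant alpha-tubulin gene in these cells, fell from 3431 and 3083 to 2363 and 2180 TPM (-0.52, adjusted p = 0.0022, limma). That call was lost with quantile normalization (-0.38), without NC replicate 1 and without sh-ANP32B replicate 2. TUBA1A, another alpha-tubulin, rose from 217 and 197.2 TPM to 346.9 and 348.8 TPM (0.75, adjusted p = 0.00035, limma), and tubulin genes therefore moved in both directions. With median-of-ratios scaling 4 of the 13 were called lower, TUBB6 (-0.53) and TUBG1 (-0.55) being added, and without sh-ANP32B replicate 2 TUBB3 was called higher too (0.68).

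ACTB, beta-actin and the most abundant client gene, stood at 6634 and 6743 TPM in NC and at 8088 and 8437 TPM in sh-ANP32B (log2 fold change 0.30, adjusted p = 0.00241, limma). It did not reach the fold limit, and with quantile normalization the difference was 0.08 (adjusted p = 0.271). For ACTG1, gamma-actin, the change was -0.10 (adjusted p = 0.0758), or 0.04 with quantile normalization. The 13 client genes summed to 14701 and 14535 TPM in NC and to 14733 and 14923 TPM in sh-ANP32B. That sum differed by far less than the sum of the CCT subunits did. It joins changes in opposite directions, since ACTB, its largest part, was higher while TUBA1B fell from 3431 and 3083 to 2363 and 2180 TPM. The sum therefore does not show that the single client genes held their levels.

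Among 9 WD40-repeat clients, 2 were called lower and none higher, against 10.8% and 20.2% of all genes tested, with a median of -0.17. CDC20, the activator of the anaphase-promoting complex, fell from 327.6 and 324.2 TPM to 132.5 and 142.3 TPM (log2 fold change -1.24, adjusted p = 8.96e-05, limma). MLST8, a subunit of the mTOR complexes, fell from 213.3 and 221.2 TPM to 141.2 and 126.5 TPM (-0.70, adjusted p = 0.000651, limma). RPTOR, the partner of MLST8 in mTORC1, was at 0.31 on the log2 scale (adjusted p = 0.0619), and GNB1, a G protein beta subunit at 409.4 to 424.3 TPM, was at 0.02, or at -0.08 with median-of-ratios scaling. Of 5 tubulin folding cofactors, which act after CCT, none was called, and the median was 0.19. In that list TBCA was at -0.38 (adjusted p = 0.023) and TBCD at 0.38 (adjusted p = 0.0258), and TBCA passed the call without NC replicate 1 (-0.52). TBCE was not analysed here.

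The other chaperone systems held genes with more negative fold changes than any CCT subunit. HSPD1 and HSPE1, which form the chaperonin of mitochondria, both fell. HSPD1 stood at 1054 and 1055 TPM in NC and at 566 and 625.2 TPM in sh-ANP32B (log2 fold change -0.82, adjusted p = 0.000268, limma). HSPE1 stood at 228.5 and 224.4 against 133.9 and 127.4 TPM (-0.79, adjusted p = 0.000191, limma). Of 20 genes of the cytosolic HSP70 and HSP90 system, 4 were called lower and none higher, with a median of -0.21, beside 10.8% called lower of all genes tested and 18.4% of those whose mean reached 100 TPM. HSP90AB1 (-0.70, adjusted p = 0.000135), HSP90AA1 (-0.66, adjusted p = 0.000204), and the HSP90 cochaperones PTGES3 (-0.59, adjusted p = 0.000761) and AHSA1 (-0.59, adjusted p = 0.000549) fell. HSPA8, the constitutive HSP70, was at -0.40 on the log2 scale (adjusted p = 0.00335), and DNAJB6 at 0.48 (adjusted p = 0.0124). DNAJB6 was called higher with quantile normalization, without NC replicate 2 and without sh-ANP32B replicate 2 (0.62 in the last). The stress-induced HSPA1A and HSPA1B, near-identical genes that can share reads, stood between 3.233 and 6.781 TPM, with log2 fold changes of 0.31 (adjusted p = 0.156) and 0.34 (adjusted p = 0.0909). HSF1, the main heat shock factor, was at -0.31 (adjusted p = 0.00346), short of the fold limit, and HSF2 fell (-0.64, adjusted p = 0.00645).

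**Figure D5:**
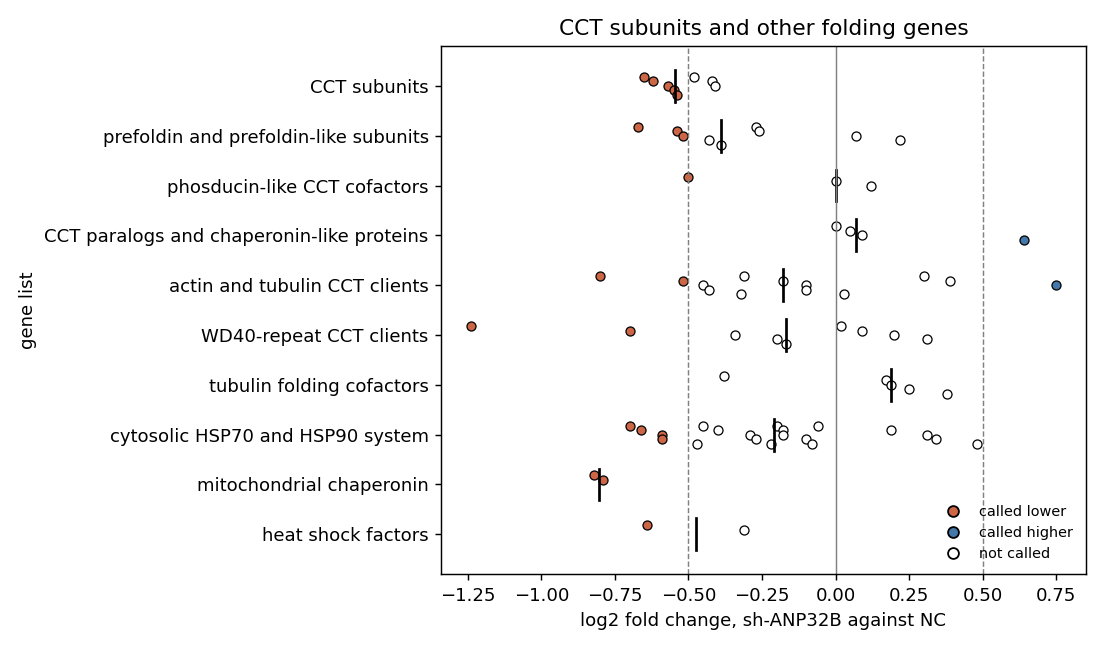
Log2 fold change (horizontal axis, sh-ANP32B against NC) of each tested gene of the CCT subunits, their cofactors, paralogs and clients, and the other chaperone lists (vertical axis), with filled points for called genes, open points for genes not called, a vertical bar at each median and dashed lines at the fold limits of -0.5 and 0.5. The 8 CCT subunits sit between -0.65 and -0.41, a narrower span than the actin and tubulin genes, which run from -0.80 to 0.75.

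Other groups of genes moved with the same comparison, in which 10.8% of all genes tested were called lower and 20.2% higher. MYC stood at 376.4 and 369.9 TPM in NC and at 239.9 and 236.3 TPM in sh-ANP32B (log2 fold change -0.65, adjusted p = 0.000191, limma), 63.8% of its NC level. Of 10 genes of cycling cells, all 10 fell, with a median of -1.03 on the log2 scale, and their summed level was 1950 and 1964 TPM in NC and 923 and 931.2 TPM in sh-ANP32B. Of 10 monocyte genes, 9 were listed, with sums of 701.4 and 689.9 TPM in NC and 6224 and 6183 TPM in sh-ANP32B. The 6 with at least 1 TPM in every library were called higher, from 0.69 for MNDA to 3.50 for LYZ. S100A8 and S100A9 were below 1 TPM in NC and passed the filter on low values through sh-ANP32B alone, and the call of CSF1R (0.56, adjusted p = 0.0828) was lost under both scalings and when any 1 of the 4 libraries was left out. LYZ, lysozyme, held most of that sum, at 470.6 and 463.5 against 5308 and 5260 TPM. CD14, of the same list, was not analysed here. Of the 7 leukemia cell markers tested, 1 was called lower (MEIS1, -0.61) and 2 higher (PTPRC, 1.15, and SPI1, 0.51, which lost its call with median-of-ratios scaling, at 0.41, and without NC replicate 1). In the list taken as markers of other lineages, PECAM1 was called higher (1.27), and NKG7 was at -0.30 (adjusted p = 0.00919), short of the fold limit. Whether cells of another lineage were present was not tested, and PECAM1 and NKG7 were expressed in all 4 libraries. The part of these changes in the CCT result was not tested.

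The genes whose profile over the 4 libraries was nearest to the mean profile of the 8 subunits were PARP1, XRCC5, RPL12, CASP2 and RBBP4, out of 7062 genes outside the lists whose mean reached 20 TPM. The measure was the Euclidean distance between centred log2(TPM + 1) values, and it ran from 0.009 for PARP1 and 0.010 for XRCC5 to 0.018 for RBBP4. The subunits themselves lay between 0.037 (CCT8) and 0.142 (CCT4) from their own mean. PARP1, a sensor of DNA breaks, stood at 354.9 and 354.5 TPM in NC and at 246.4 and 242.1 TPM in sh-ANP32B (log2 fold change -0.54). XRCC5, the large subunit of the Ku complex, stood at 260 and 256.8 against 181.8 and 176.8 TPM (-0.52). RPL12, a ribosomal protein, stood at 2273 and 2265 against 1591 and 1574 TPM (-0.52). These 5 genes were picked for their likeness over 4 libraries, so their values describe the profile and carry no test.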

How the data were processed

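RNA-seq of MV4-11 cells was analysed in 2 NC and 2 sh-ANP32B libraries, grouped by the sample labels. Per the labels, total RNA was taken with Trizol and libraries were made with a TruSeq RNA kit, and the submitters' processing notes name HISAT2 (version 2.0.5) and hg38. The authors deposited 1 TPM value for each gene in each library. This unit was read from the values, and the tool, annotation and strand setting behind it are not given in the sources used here. The study called genes with a test for counts, which TPM cannot take.

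Gene identifiers were matched to a name table (17290 of 18885), and positions were taken from GENCODE version 44. A gene was tested if 2 or more libraries reached 1 TPM. Its log2(TPM + 1) values were tested with limma (version 3.58.1 in R 4.3.3; lmFit, and eBayes with a trend) over all 4 libraries, with Benjamini-Hochberg adjustment over the 16937 genes tested. Fold changes on this scale understate the change of low genes. TPM keep no depth, so no counting error can be given. No column of the table was left unused (0).

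The members and the gene lists were chosen with earlier results of these data known. Named were all subunits, ANP32B and MYC, genes that overlap an exon of a subunit or start within 1 kb on the other strand, their pseudogenes, and the 5 genes with the nearest profile. From each other list up to 4 genes at either end of the fold changes and the 3 most abundant could be named, and not all of them are reported. The result of 1 marker of other lineages is not reported here. The alternatives tried were the replicate block, a pseudocount of 0.1, 2 other filters on low values, 2 other scalings, an adjusted p, a fold limit of 1 and each library left out in turn.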

Additional observations from a re-analysis of the deposited data

How the results depend on the processing

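With a fold limit of 1 in place of 0.5, 0 of the 8 CCT subunits were called lower by limma, although all 8 had an unadjusted p below 0.05. In the other lists 7 genes were then called lower (27 at the limit of 0.5) and 9 higher (14), and over all genes tested 283 lower (1833) and 1165 higher (3413), since that limit removes smaller changes. Median-of-ratios scaling brought the subunits called lower to 8 and their summed TPM to 65% of NC, against 5 and 69.5% with TPM as deposited, and quantile normalization gave 4 and 72.1%. Over all genes tested, these 2 scalings called 2479 and 2521 genes lower, against 1833 with TPM as deposited. Leaving out each library in turn gave 5 to 6 subunits called lower and sums of 68.7% to 70.3%. In these fits a lone library is assumed to vary like the others. The number of genes called lower in the other lists was 25 to 28 when a library was left out. With at least 1 TPM in every library, 40.1% of calls were lower, against 34.9%. No subunit changed sign in any alternative, and the largest adjusted p was 0.00615 (CCT6A without NC replicate 1). The deviations of the NC and sh-ANP32B libraries with the same replicate number were close to uncorrelated over genes (-0.0232). This cannot tell whether those libraries were prepared together. With the replicate block, 5 subunits were called lower, as without it, and over all genes 1841 were called lower and 3391 higher. With 2 libraries per group and no read counts, the precision rests on the spread that limma pools over genes.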
